A study of Mus musculus with 2 samples.

Results

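Cluster 31 is one of 4 groups of nuclei that the deposited annotation of a mouse retina atlas names retinal ganglion cells (RGCs). Its members were all nuclei that carry both the name RGCs and the cluster number 31. They came to 331 of 14123 nuclei in the series, 58 in the control library and 273 in the mutant library, and no nucleus of the cluster carried another name. The RGC class as a whole held 1271 nuclei, and its other clusters are numbered 2, 8 and 15.

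Whole retinas of C57 BL/6J mice were taken at postnatal day 21 and profiled by single-nucleus RNA-seq with particle-templated partitions (PIPseq), in 1 library per genotype. The first group, Cre-, is labelled wild type and consists of control animals without the Cre transgene; whether they carried floxed alleles is not stated. In the second group, Tet tcKO, floxed exons of Tet1, Tet2 and Tet3 were recombined by the Chx10-Cre-GFP transgene, which is active in retinal progenitor cells. Expression of the transgene is mosaic. The authors bred Cre-positive animals together to reduce this, but some nuclei of a mutant retina may still not have recombined. Each library drew on 2 nuclear dissociations of pooled retinas that the files do not tell apart, so each genotype was 1 sample, and no difference between genotypes could be tested.

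RGCs are the output neurons of the retina. Their axons form the optic nerve, they release glutamate, and they fall into many subtypes that differ in transcription factors, adhesion molecules and channels. TET enzymes oxidise 5-methylcytosine to 5-hydroxymethylcytosine, a step toward the removal of DNA methylation and a mark that is abundant in neurons.

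Cluster 31 made up 10.2% of Cre- RGCs (58 of 567, exact 95% interval 7.86 to 13.02%) and 38.8% of Tet tcKO RGCs (273 of 704, 35.2 to 42.5%). Of all nuclei it was 0.788% (0.599 to 1.02%) in the control library, and the Tet tcKO share was 4.03% (3.58 to 4.53%). The main RGC cluster of the Cre- library was cluster 8, with 394 nuclei against 29 in Tet tcKO. Cluster 15 ran the other way, with 4 nuclei in Cre- and 217 in Tet tcKO, while cluster 2 held 111 and 185. The clusters were made from the counts of both libraries together, so these shares are a description, and a difference in make-up cannot be told apart from a difference between the 2 preparations. Intervals here and below cover counting error only, not the variation between animals.

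**Figure D1:**
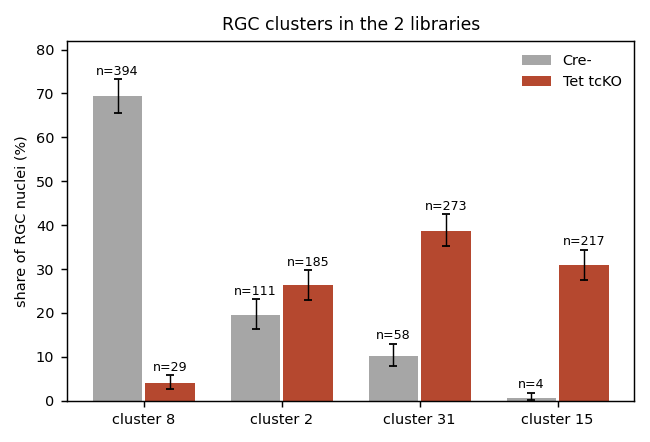
Share of RGC nuclei in each of the 4 RGC clusters (y axis, percent of the library's RGC nuclei) in the Cre- and Tet tcKO libraries, with exact 95% binomial intervals as error bars. Cluster 31 stands at 10.2% of Cre- and 38.8% of Tet tcKO RGCs, and cluster 8 at 69.5% and 4.12%.

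Members of cluster 31 were shallow beside cluster 2 in both libraries and cluster 15 in Tet tcKO, and near cluster 8 in depth. A Tet tcKO member held a median of 1564 transcripts counted by unique molecular identifier (UMI; range 608 to 5314), against 3561 in cluster 2, 3179 in cluster 15 and 1554 in cluster 8. A Cre- member held a median of 1337.5 UMIs (698 to 2769), against 4092 in cluster 2 and 1306 in cluster 8. In all, the cluster contributed 466601 UMIs from Tet tcKO and 84835 from Cre-, so that 1 UMI weighs far more in the Cre- values. Levels below are UMIs of a gene per 1000000 UMIs of the same population (CPM). The median mitochondrial share of a member was 4.87% in Cre- and 4.11% in Tet tcKO. No barcode of the cluster occurred in both libraries. Without the 10% of nuclei of each library that most resembled simulated doublets, the cluster lost 37 of 273 Tet tcKO and 1 of 58 Cre- nuclei, and the other Tet tcKO RGC clusters lost 24.6% of theirs.

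The markers of the class were present in cluster 31. Rbpms, which encodes an RNA-binding protein used as a pan-RGC marker, stood at 975 CPM in Tet tcKO cluster 31 (exact interval 888 to 1069) and at 1096 CPM in Cre- cluster 31 (885 to 1343). In amacrine nuclei of the same libraries it was at 37.6 and 44.8 CPM, and in rods and cones at 64.0 and 71.9 CPM. Across all 4 clusters Rbpms ran from 944 to 1116 CPM in Tet tcKO and from 701 to 1367 CPM in Cre-, so cluster 31 lay within the range of the other RGCs. The gene lies on the minus strand of chromosome 8 (34272116 to 34420037, GRCm39).

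Slc17a6, the vesicular glutamate transporter of RGCs, was at 60.0 CPM (39.9 to 86.7) in Tet tcKO cluster 31 and at 70.7 CPM (26.0 to 154) in Cre- cluster 31, against 4.70 and 3.58 CPM in amacrine nuclei. Thy1, a surface glycoprotein of RGCs, was at 103 CPM (75.8 to 136) and 82.5 CPM (33.2 to 170), against 32.0 and 44.8 CPM in amacrine nuclei. For both genes the intervals of the cluster overlapped those of the other RGCs of the same library. Slc17a6 was lowest in cluster 31 among the Tet tcKO RGC clusters, yet it rested there on 28 UMIs, and its log2 ratio to the other clusters pooled was -0.58 with an interval from -1.21 to 0.01. Among nuclei with 1000 to under 2500 UMIs that ratio was -0.94 (-1.85 to -0.06), on 21 and 26 UMIs.

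The marker was also read nucleus by nucleus, at equal depth. After each nucleus was thinned to 500 UMIs, Rbpms was found in 41.8% of Tet tcKO members (exact interval 35.8 to 47.9%) and 41.4% of Cre- members (28.6 to 55.1%). The same measure gave 1.44% and 1.99% in amacrine nuclei and 3.25% and 3.78% in rods and cones. Another random draw gave 41.0% and 50.0% in the cluster, and without thinning the shares were 80.6% and 72.4%. A member held a median of 5 UMIs over the 20 RGC markers in Tet tcKO (1 to 16) and 6 in Cre- (0 to 16), and 3 or more different markers were seen in 209 of 273 and 42 of 58 nuclei. No RGC marker was found in 2 Cre- nuclei, which were kept as members.

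Summed over the 20 RGC markers, the level was 3255 CPM (3094 to 3423) in Tet tcKO cluster 31, below clusters 15, 8 and 2 of that library at 3737, 3970 and 4356 CPM. Ebf1, a transcription factor of RGCs, was at 763 CPM (686 to 846) against 1176 CPM in cluster 15, 1079 CPM in cluster 8 and 1464 CPM in cluster 2. Among nuclei with 1000 to under 2500 UMIs it was at 815 CPM against 969 CPM in the other Tet tcKO RGCs, a log2 ratio of -0.25 (-0.50 to 0.002). In Cre- the sum was 4043 CPM (3627 to 4494) in cluster 31 and lay between cluster 8 (3513 CPM) and cluster 2 (4573 CPM). Amacrine nuclei were at 617 CPM in Tet tcKO and 793 CPM in Cre-.

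**Figure D2:**
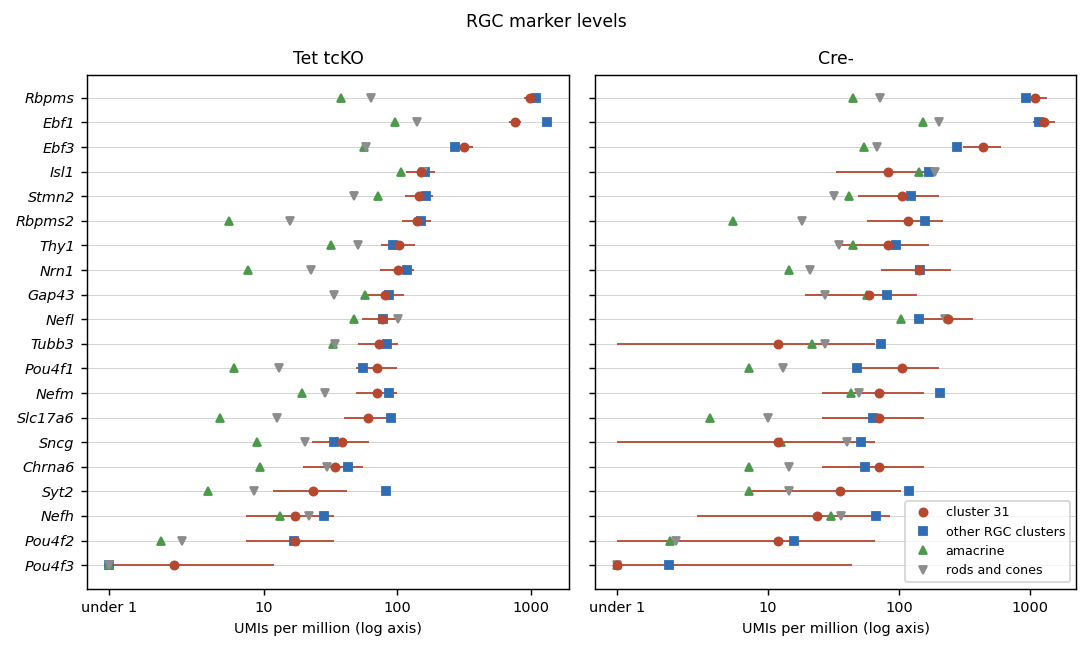
Levels of the 20 RGC markers (x axis, CPM, log axis with values under 1 drawn at the left tick) in cluster 31 with exact 95% Poisson intervals, the other RGC clusters pooled, amacrine nuclei, and rods and cones, in the Tet tcKO (left) and Cre- (right) libraries. Rbpms in cluster 31 is at 975 and 1096 CPM and lies beside the other RGC clusters, far from amacrine nuclei at 37.6 and 44.8 CPM.

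Genes of other retinal classes were also counted in cluster 31. The 12 amacrine markers summed to 1301 CPM in Tet tcKO and 1037 CPM in Cre-. In amacrine nuclei they summed to 3493 and 3033 CPM, and in the other RGCs to 1012 and 918 CPM. The 8 rod markers summed to 1155 CPM in Tet tcKO and 1804 CPM in Cre-, and the 10 cone markers to 1745 CPM and 613 CPM. Amacrine nuclei held rod markers at 1174 and 2746 CPM and cone markers at 2030 and 845 CPM. Of the cone list, Thrb was at 538 CPM in Tet tcKO amacrine nuclei against 468 CPM in rods and cones. In Cre- these values were 276 and 349 CPM. Cluster 31 held Thrb at 514 CPM in Tet tcKO and 236 CPM in Cre-. The other Tet tcKO RGCs were lower than cluster 31 on both lists, at 779 and 1168 CPM. Microglia markers summed to 15.0 CPM in Tet tcKO, and all 6 were at 0 in Cre-.

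The 10 genes that led cluster 31 over every nucleus of the Tet tcKO library outside the RGC class were D130079A08Rik, Rbpms, Srgap1, Coro6, 6330411D24Rik, Tmem163, Rbpms2, Stk32a, Miat and D130009I18Rik. The long noncoding RNA D130079A08Rik was 17.6-fold higher (574 against 32.6 CPM), and Rbpms 16.0-fold. Srgap1, a GTPase-activating protein of the Slit and Robo pathway, was 11.7-fold higher (904 against 77.3 CPM). Miat, a nuclear noncoding RNA of neurons, was 7.26-fold higher (592 against 81.5 CPM). These genes took part in the clustering, so the values describe the cluster and test nothing. In the other Tet tcKO RGCs, Srgap1 was at 990 CPM and Miat at 516 CPM. D130079A08Rik was uneven among the clusters. In Tet tcKO it stood at 321 CPM in cluster 2, 824 CPM in cluster 15 and 96.4 CPM in cluster 8, and in Cre- at 613 CPM (458 to 804) in cluster 31 against 228 CPM in cluster 2 and 183 CPM in cluster 8.

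The targeted genes were counted in cluster 31 of both libraries. Tet1 was at 51.4 CPM in Tet tcKO and 35.4 CPM in Cre- (24 and 3 UMIs), Tet2 at 116 and 118 CPM (54 and 10 UMIs), and Tet3 at 156 and 70.7 CPM (73 and 6 UMIs). The intervals of all 3 genes overlapped between the libraries. Counts of a whole gene do not tell transcripts with and without the floxed exons apart, so these values check neither the genotype nor the recombination of a nucleus.

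Within the Tet tcKO library, cluster 31 was set against the other RGCs pooled. Sema3a, a secreted guidance cue, was 4.69-fold lower, and Pcdh9, a protocadherin adhesion molecule with the most UMIs among the genes named as lower, was 1.97-fold lower. Luc7l3, a splicing factor, was 1.83-fold higher, and Ehmt2, a histone H3 lysine 9 methyltransferase, 2.23-fold higher, though at matched depth the log2 ratio of Ehmt2 was 0.55 (-0.20 to 1.34). Of 10602 genes past a filter of 10 CPM on one side and 10 UMIs over both, 760 (7.17%) were higher by 2-fold or more and 383 (3.61%) were lower by 2-fold or more, with a median log2 ratio of 0.13. Since the genes also made the clusters, none of these ratios was tested.

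Sema3a gave the largest ratio among the 15 genes named as lower. It was at 49.3 CPM in cluster 31 (exact interval 31.2 to 74.0), against 240 CPM in cluster 2, 228 CPM in cluster 15 and 135 CPM in cluster 8. In Cre- it was at 94.3 CPM in cluster 31 (40.7 to 186), 249 CPM in cluster 2 and 97.7 CPM in cluster 8. It was therefore below cluster 2 in both libraries. Beside cluster 8 the Cre- values were near each other, and the Tet tcKO log2 ratio was -1.45 with an interval that reached 0.01. After thinning to 500 UMIs, Sema3a was found in 1.10% of Tet tcKO members against 10.3% of cluster 2 and 8.76% of cluster 15. The share in the cluster rests on 3 nuclei, and another random draw gave 2.93%. The gene spans 478 kb of chromosome 5 (13175288 to 13653578, plus strand).

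Pcdh9 was at 3526 CPM in Tet tcKO cluster 31 (3357 to 3700), beside 7007 CPM in cluster 2 and 7109 CPM in cluster 15. Cluster 8 was at 3624 CPM, and the log2 ratio to it was -0.04 with an interval from -0.26 to 0.19. In Cre- the order was the same, with 2947 CPM in cluster 31, 3476 CPM in cluster 8 and 7437 CPM in cluster 2. Pcdh9 was thus low in clusters 31 and 8 and high in cluster 2 in both libraries. When each gene was counted once per nucleus the log2 ratio over the other Tet tcKO RGCs turned to 0.68, and it also turned above 0 for Il1rapl2, Macrod2, Opcml, Kcnh7, Kirrel3 and Rbpms.

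The other lower genes were the synaptic adhesion gene Il1rapl2 (log2 ratio -1.54), the adhesion genes Cdh11 (-1.17), Opcml (-0.93) and Kirrel3 (-0.90), the heparan sulfate enzyme Hs3st4 (-1.56), the growth factor Igf1 (-1.57), the peptidase Trhde (-1.46), the glycosyltransferase Gtdc1 (-1.37), the noncoding RNA Cdr1os (-1.09), the hydrolase Macrod2 (-0.89), Astn2 (-0.93), which acts in neuronal migration, Kcnh7 (-0.87), a voltage-gated potassium channel, and Ccdc192 (-1.59), a coiled-coil gene. All 15 were lower than in cluster 2 and than in cluster 15 with intervals below 0. Those clusters held 804092 and 810359 of the 1666334 UMIs that the genes were chosen against, so the choice made this likely. Against cluster 8, 13 of 15 were lower, 3 of them with intervals below 0.

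Among the 15 genes named as higher, Luc7l3 was at 1444 against 788 CPM and Ehmt2 at 139 against 62.4 CPM. Others were Pabpn1, the nuclear poly(A)-binding protein (714 against 401 CPM), Safb2, a scaffold attachment factor (234 against 121 CPM), Celf5, a regulator of splicing (184 against 94.2 CPM), Pdcd11, which acts in ribosomal RNA processing (114 against 48.6 CPM), and Zfp512, a zinc finger protein (124 against 57.6 CPM). Also among them were Cacna1g, a low-voltage-activated calcium channel (251 against 130 CPM), and Unc13b, a factor of synaptic vesicle priming (405 against 224 CPM). Csnk1e, a kinase of the circadian clock and Wnt pathway, was at 199 against 90 CPM, and Gprasp2, a receptor-associated sorting protein, at 152 against 64.8 CPM. Fah, an enzyme of tyrosine breakdown, Plekhg1, a guanine nucleotide exchange factor, and ENSMUSG00000095041, which has no symbol in the files, had log2 ratios of 1.05, 1.00 and 1.00.

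Numbl, an adaptor related to the Notch regulator Numb, had the highest ratio (log2 1.41, 114 against 42.6 CPM), but 26 of its 53 UMIs came from 1 nucleus. Without that nucleus the log2 ratio was 0.45. All 15 higher genes were above both cluster 2 and cluster 15 with intervals above 0, which the choice of these genes again made likely. Against cluster 8, 9 of 15 were higher, with 1 interval above 0.

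Cluster 31 members carried fewer UMIs than clusters 2 and 15, and the ratios were therefore recomputed among nuclei with 1000 to under 2500 UMIs on both sides, a comparison chosen after the data were seen. It used 236 members and 128 other Tet tcKO RGCs. The latter were 30 of 185 nuclei of cluster 2, 74 of 217 of cluster 15 and 24 of 29 of cluster 8. The range thus changed the mix of clusters as well as depth, and depth was not made equal within it. What each added to the shifts below was not tested. All 15 higher and all 15 lower genes kept the sign of their ratio, but the intervals of 5 higher genes (Gprasp2, Pdcd11, Ehmt2, Unc13b and Plekhg1) and 5 lower genes (Il1rapl2, Ccdc192, Igf1, Trhde and Kirrel3) then held 0. Fewer reached 2-fold: 4 of 15 higher genes, against 8 among all nuclei, and 3 of 15 lower genes, against 9. Sema3a stayed at a log2 ratio of -1.67 (interval -2.57 to -0.83) and Gtdc1 at -1.48, whereas Il1rapl2 moved to -0.07 (-0.65 to 0.51) and Kirrel3 to -0.11 (-0.44 to 0.23). Among the higher genes Fah stood at 1.45 and Csnk1e at 1.25, and Luc7l3 at 0.46. Numbl, at 1.82, is counted among the genes at 2-fold, and without the 1 nucleus that held 26 of its 44 UMIs it was at 0.54 (-0.73 to 1.95).

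**Figure D3:**
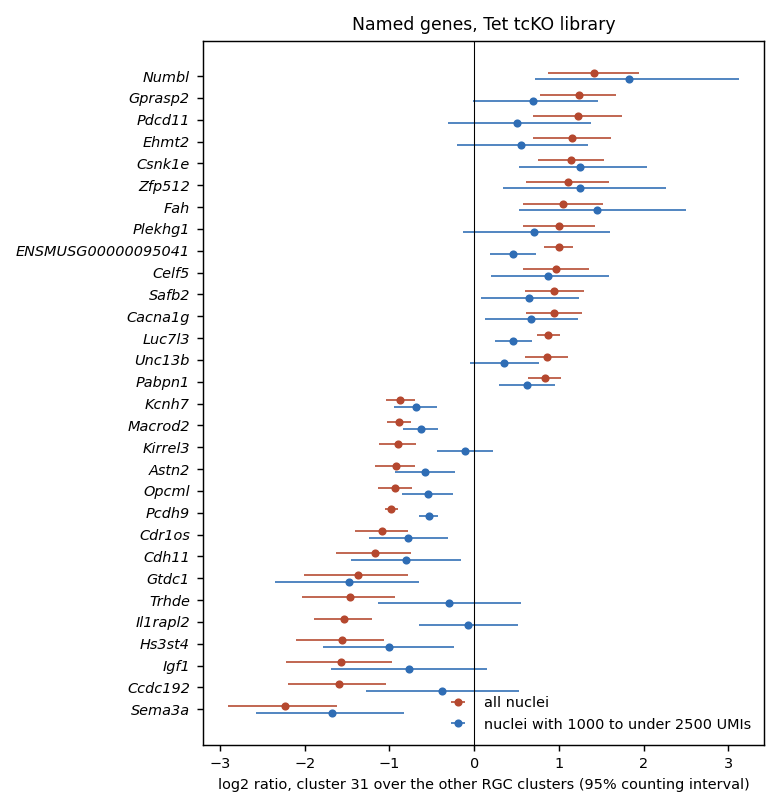
Log2 ratio of cluster 31 over the other Tet tcKO RGC clusters (x axis) for the 15 higher and 15 lower named genes, over all nuclei and over nuclei with 1000 to under 2500 UMIs, with exact 95% counting intervals. Every point keeps its side of 0 in that depth range, and many move toward it, Il1rapl2 from -1.54 to -0.07. The range also holds a different mix of the other clusters.

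The same genes were read in the Cre- library, where the cluster holds 58 nuclei. Over cluster 2 of that library, 13 of the 15 higher genes were above 0, 4 of them with intervals above 0, among them Gprasp2 (log2 ratio 1.52, 0.64 to 2.35) and Cacna1g (1.59, 0.73 to 2.41). Of the 15 lower genes 14 were below 0, 11 of them with intervals below 0, among them Il1rapl2 (-2.51, -3.39 to -1.75) and Pcdh9 (-1.34, -1.53 to -1.15). Trhde was the exception at 0.18 (-0.53 to 0.84), but 13 of its 23 UMIs came from 1 nucleus, without which it stood at -0.98 (-2.07 to -0.05). Over cluster 8 of the Cre- library the picture was different, with 4 of 15 higher genes above 0 and 6 of 15 lower genes below 0.

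The lists chosen for RGC biology were read against the 7.17% of all genes that were 2-fold higher than in the other Tet tcKO RGCs and the 3.61% that were 2-fold lower. Of the 20 RGC markers, 19 passed the filter, 0 were 2-fold higher and 1 was 2-fold lower, with a median log2 ratio of -0.16 beside 0.13 over all genes. The one lower marker was Syt2, a calcium sensor of fast transmitter release, at 23.6 CPM (11.8 to 42.2) in cluster 31. It was at 24.7 CPM in cluster 15 and at 136 and 135 CPM in clusters 2 and 8. In Cre- it was at 35.4 CPM in cluster 31 (3 UMIs), against 132 and 113 CPM.

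Among the 25 transcription factors of RGC subtypes, 19 passed, 1 was 2-fold higher and 3 were 2-fold lower, with a median of -0.15. Tfap2d was at 36.4 CPM in cluster 31 against 89.4 CPM in the other RGCs (log2 ratio -1.30, -2.11 to -0.57). The other lower genes, Irx5 and Etv1, and the higher one, Neurod2, had 4, 4 and 6 UMIs in cluster 31. For Foxp2 (0.02, -0.58 to 0.58) a difference was not detectable at this depth, and Bnc2 had a ratio of -0.85 (-1.55 to -0.21). Of the 22 surface and secreted subtype genes, 9 passed and 1 was 2-fold lower, namely Cdh6, a cadherin of direction-selective RGCs (53.6 against 128 CPM). Kcnip4, a modulator of A-type potassium channels, was at 8830 CPM in cluster 31 and 8882 CPM in cluster 2.

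The axon cytoskeleton list had 15 of 15 members past the filter and 0 at 2-fold in either direction, with a median of -0.10. Mapt, which encodes tau, was at 804 against 616 CPM (log2 ratio 0.38, 0.21 to 0.55), and the ankyrin Ank2 at 1399 against 1694 CPM (-0.28, -0.40 to -0.15). Of 27 axon guidance genes 26 passed, 0 were 2-fold higher and 3 were 2-fold lower, with a median of -0.34. These were Sema3a, the ephrin ligand Efnb2 (-1.26, -2.64 to -0.13, on 7 UMIs) and the ephrin receptor Epha3 (-1.06, -1.95 to -0.28). Epha3 was at 32.1 CPM in cluster 31 and 31.1 CPM in cluster 2, against 105 CPM in cluster 15. Epha6, another ephrin receptor, had a ratio of -0.59 (-0.75 to -0.43), and Robo2, a receptor for Slit ligands, -0.57 (-0.74 to -0.40). Cntn2, an axonal adhesion protein, stood at 90 against 45.0 CPM (1.00, 0.42 to 1.56).

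Of 19 sodium and potassium channel genes 18 passed and 0 reached 2-fold, with a median of -0.09. Scn1a was at 536 against 606 CPM, and Kcnd2 at 1710 against 1743 CPM. Of 25 receptor genes 25 passed, 0 were 2-fold higher and 2 were 2-fold lower, with a median of -0.14. The lower ones were Gabrb2, a GABA-A receptor subunit (-1.02, -1.58 to -0.50), and Glra1, a glycine receptor subunit (-1.12, -2.12 to -0.24). Gabra2 (-0.98) and Gabrb1 (-0.95), also GABA-A receptor subunits, lay near 2-fold, with intervals below 0. Gria2, an AMPA receptor subunit, was higher at 1670 against 1263 CPM (0.40, 0.28 to 0.52).

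Of 16 genes that write, erase or read DNA methylation, 11 passed and 0 reached 2-fold. Dnmt3a, a de novo methyltransferase, was at 540 against 421 CPM (0.36, 0.15 to 0.57). Of the 21 developmental genes 14 passed and 1 was 2-fold higher, Neurod4 (32.1 against 12.6 CPM, 15 and 21 UMIs). Of the 17 axon injury and stress genes 7 passed, 0 were 2-fold higher and 1, Ddit3, was 2-fold lower on 1 UMI, and of 10 immediate early genes 4 passed and 1, Egr1, was 2-fold higher on 13 UMIs. Photoreceptor and amacrine genes stood beside these values: the rod list had a median of 0.62 and the cone list of 0.55 over the other RGCs, with Nr2e3 and Pde6h as the 1 gene of each at 2-fold, and the amacrine gene Tfap2b was at 90 against 43.2 CPM. Their part in the ratios was not tested.

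Gene length, a property chosen after the values were seen, separated the named genes. The lower genes had a median length of 478 kb and the higher genes 26.6 kb (14 of 15 with an annotated length), against 70.3 kb over 4351 genes at 50 CPM or more. Among genes at 50 CPM or more on one side, the 790 genes of 200 kb or longer stood at a median log2 ratio of -0.19, and the 651 genes shorter than 20 kb at 0.50, a difference of -0.69. The difference was -0.63 over cluster 2, -0.80 over cluster 15 and 0.63 over cluster 8, so cluster 31 lay between cluster 8 and clusters 2 and 15. In Cre- it was -0.55 over cluster 2 and 0.46 over cluster 8. Long genes made up a median of 33.6% of the UMIs of a Tet tcKO member, against 28.8% in cluster 8, 37.2% in cluster 2 and 40.8% in cluster 15, and a median of 34.4% of a Cre- member, against 28.0% in cluster 8 and 36.6% in cluster 2.

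Depth moved with this pattern, and its part in the result was not tested. Among nuclei with 1000 to under 2500 UMIs the difference over the other Tet tcKO RGCs, whose mix of clusters also changed, was -0.40. It was -0.21 over cluster 2 alone and -0.50 over cluster 15 alone. The long-gene medians were then 33.3% in cluster 31, 28.9% in cluster 8, 35.3% in cluster 2 and 39.2% in cluster 15. Within cluster 31 the share did not follow depth, with a Spearman rho of 0.04 over 273 Tet tcKO nuclei and 0.06 over 58 Cre- nuclei, both over nuclei of 1 library. In clusters 2 and 15 of Tet tcKO rho was 0.52 and 0.48, and in cluster 8, with 29 nuclei, it was -0.16. In clusters 2 and 8 of Cre- it was 0.26 and 0.30.

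**Figure D4:**
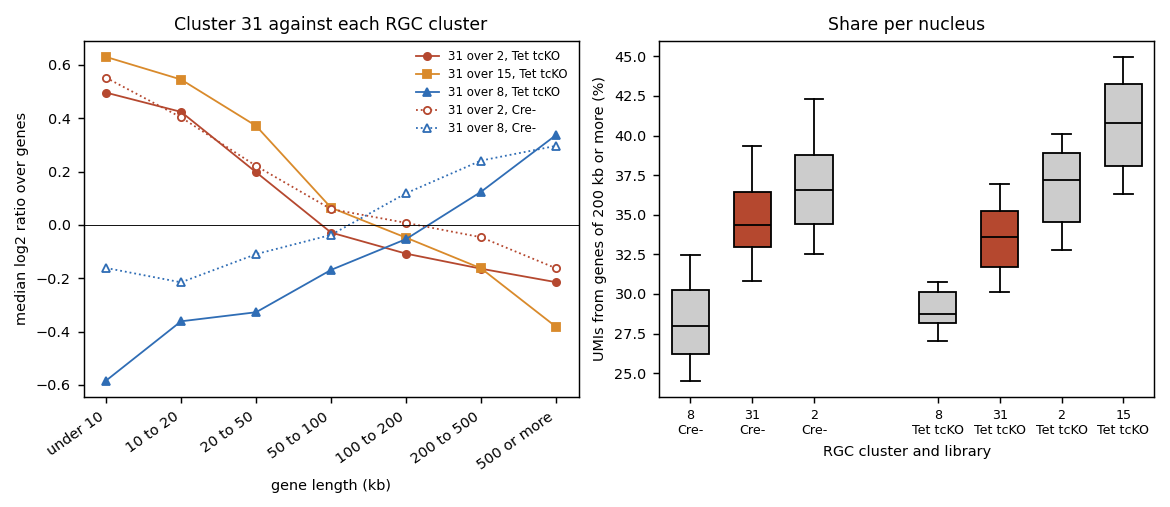
Median log2 ratio of cluster 31 over each other RGC cluster by gene length (x axis, kb), for genes at 50 CPM or more on one side, in the Tet tcKO and Cre- libraries. The lines over clusters 2 and 15 run from above 0 in short genes to below 0 in long genes, and those over cluster 8 run the other way; in Tet tcKO the values for genes of 500 kb or more are -0.21, -0.38 and 0.34.

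Between genotypes, cluster 31 nuclei of the Tet tcKO library held more UMIs of cone genes and of the calcium channel gene Cacna1d, and fewer of several neuronal and mitochondrial genes, than those of the Cre- library. Cngb3, a subunit of the cone cyclic nucleotide-gated channel, was 8.33-fold higher (491 against 58.9 CPM), and Cacna1d, an L-type calcium channel, 2.13-fold higher (703 against 330 CPM). Nefl, the neurofilament light chain, was 3.06-fold lower (77.2 against 236 CPM). Of 8129 genes past the filter, 1057 (13%) were 2-fold higher and 571 (7.02%) 2-fold lower, with a median of 0.04. The Cre- side rests on 84835 UMIs, and with 1 library per genotype no gene was tested.

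For Rbpms, Slc17a6 and Thy1 a difference between genotypes was not detectable at this depth. The log2 ratio of Tet tcKO over Cre- was -0.17 for Rbpms (-0.49 to 0.17), -0.24 for Slc17a6 (-1.54 to 1.32) and 0.32 for Thy1 (-0.83 to 1.71). Over the RGC list 18 of 20 markers passed, 2 were 2-fold higher and 2 were 2-fold lower, with a median of -0.20. Ebf1 stood at 763 against 1273 CPM (-0.74, -1.05 to -0.41). The higher markers had 1 control UMI each: Tubb3, a neuronal tubulin, had 34 UMIs in Tet tcKO (log2 ratio 2.63, 0.05 to 7.97), and Sncg, a synuclein, 18. The lower ones were Nefl and the acetylcholine receptor gene Chrna6 (16 against 6 UMIs).

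Most cone genes were higher and the rod genes lower in Tet tcKO in the other populations too. In cluster 31, 6 of 9 cone genes past the filter were 2-fold higher in Tet tcKO, beside 13% of all genes. Among them, Opn1mw and Pde6c had 1 control UMI each and intervals from -0.86 to 7.17. Of 8 rod genes 3 were 2-fold lower, beside 7.02% of all genes, and the intervals of Nrl and Pde6a held 0. The cone and rod lists had medians of 1.13 and -0.73. In amacrine nuclei these medians were 1.27 and -1.56, and in rods and cones 2.00 and -1.15. Pde6h, a cone phosphodiesterase subunit, went the other way, at -1.83 (-3.10 to -0.53) in amacrine nuclei and -0.95 (-1.24 to -0.67) in rods and cones. Cngb3 (3.06, 1.81 to 4.69), the short-wavelength cone opsin Opn1sw (3.58, 1.06 to 8.91, on 1 control UMI) and the cone transducin subunit Gnb3 (1.83, 0.56 to 3.49) were among the 10 genes named as higher in cluster 31. Each of them was also higher in amacrine nuclei and in rods and cones of the Tet tcKO library, as was Abcd4, a lysosomal transporter of cobalamin (2.53 in cluster 31, 0.94 to 4.83, on 3 control UMIs). What RNA of other cells adds to these counts was not tested.

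Cacna1d and Dnm2 had no such shift in the other populations. Cacna1d had a log2 ratio of 1.09 (0.53 to 1.70) in cluster 31. It was at 575 against 568 CPM in cluster 2, at 938 against 893 CPM in amacrine nuclei and at 293 against 399 CPM in rods and cones. Dnm2, a dynamin of endocytosis, was at 141 against 23.6 CPM in cluster 31 (2.58, 0.68 to 5.66) and at 127 against 146 CPM in cluster 2, and its control value was 2 UMIs. The collagen gene Col11a1 (2.86, 0.96 to 5.93) and Slmap, which encodes a membrane-anchored protein (2.47, 0.56 to 5.55), also rested on 2 control UMIs. Col11a1 was higher in amacrine nuclei too (654 against 256 CPM), and Slmap in rods and cones (197 against 127 CPM). Scai had 59 UMIs in Tet tcKO and 0 in Cre-, where a count of 0 allows up to 3 UMIs, so against that floor it was at least 3.58-fold higher, counting error in the 59 UMIs aside. It was lower in cluster 2 (144 against 206 CPM) and higher in amacrine nuclei (161 against 77.0 CPM). All 49 UMIs of the noncoding RNA 1700054O05Rik came from 1 Tet tcKO nucleus.

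Among the 10 genes named as lower in Tet tcKO, the mitochondrial genes mt-Co1 (947 against 1921 CPM) and mt-Atp8 (129 against 365 CPM) and the unconventional myosin gene Myo3a (122 against 342 CPM) were also lower in cluster 2, in amacrine nuclei and in rods and cones. Nefl had a log2 ratio of -1.61 (-2.44 to -0.75) in cluster 31. It stood at 83.3 against 92.6 CPM in cluster 2, and it was lower in amacrine nuclei (47.0 against 104 CPM) and in rods and cones (101 against 223 CPM). Gabrb2 (-1.62, -2.47 to -0.73) and the kinase gene Map2k4 (-1.76, -2.71 to -0.76) were lower in cluster 31, while in cluster 2 Gabrb2 was at 121 against 109 CPM and Map2k4 at 139 against 82.3 CPM. The noncoding RNA D130009I18Rik was at 107 against 413 CPM, and Tafa2, a secreted neurokine, at 270 against 625 CPM. In cluster 2, 8 of the 10 genes were below 0, all but Gabrb2 and Map2k4, so D130009I18Rik and Tafa2 were lower there too. Trhde (-1.98) and the noncoding RNA Gm14009 (-2.60) depended on 1 Cre- nucleus each, and without it their ratios were -0.82 and -0.57.

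**Figure D5:**
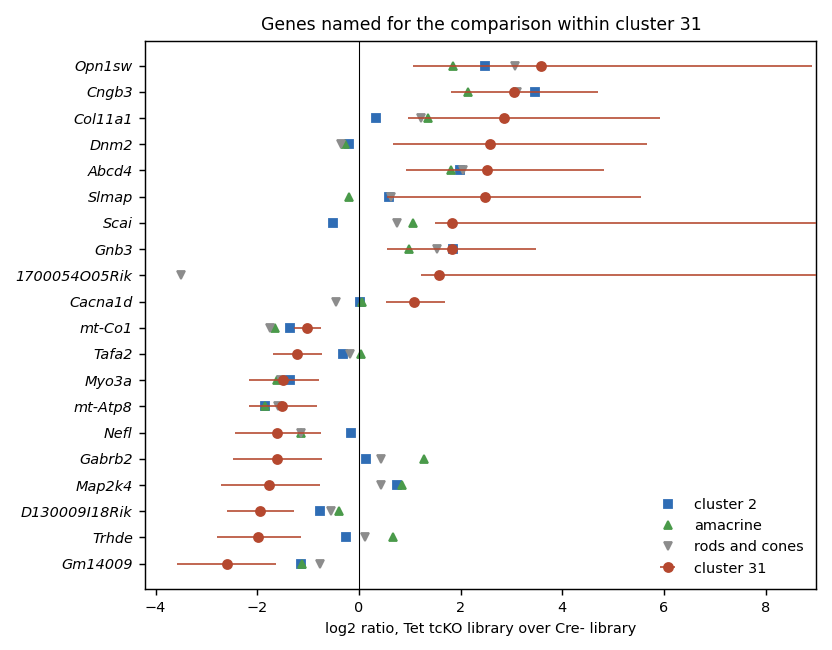
Log2 ratio of Tet tcKO over Cre- (x axis) for the 10 genes named as higher and the 10 named as lower within cluster 31, with exact 95% counting intervals, and the same ratio in cluster 2, in amacrine nuclei and in rods and cones as points; intervals of Scai and 1700054O05Rik, with 0 control UMIs, have no upper limit and run to the edge. Cngb3, Opn1sw, Gnb3, Abcd4, mt-Co1, mt-Atp8 and Myo3a lie on the same side of 0 in every population shown, and Gabrb2 and Map2k4 lie below 0 in cluster 31 alone.

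The other lists were read against 13% of all genes higher and 7.02% lower between the genotypes. Of the 25 receptor genes 3 (12%) were 2-fold higher and 5 (20%) were 2-fold lower. Grik2, a kainate receptor subunit, was at 478 against 224 CPM (1.09, 0.42 to 1.85) and Gabrb1 at 133 against 271 CPM (-1.03, -1.74 to -0.27). Glra3 was at 129 against 23.6 CPM (2.45, 0.53 to 5.53), and its control value was 2 UMIs. Of the channel genes 17 passed and 0 reached 2-fold. Of the methylation genes 10 passed and 1, Tet3, was 2-fold higher (1.15, -0.05 to 2.64). Robo3, a receptor that governs axon crossing at the midline, had 34 UMIs in Tet tcKO and 0 in Cre-. Against the floor of 3 counts it was at least 2.06-fold higher, counting error in the 34 UMIs aside. In the other populations it was at 336 against 5.02 CPM in rods and cones, 76.4 against 7.16 CPM in amacrine nuclei and 48.5 CPM against 0 in cluster 2. Fabp7, a fatty acid-binding protein of progenitors, was at 17.1 CPM in Tet tcKO cluster 31 (8 UMIs) and at 0 in Cre-, a difference not detectable at this depth, beside 92.3 against 0.660 CPM in rods and cones.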

How the data were processed

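Nuclei of whole P21 retinas were profiled in 1 Cre- and 1 Tet tcKO library. The authors aligned PIPseq reads to GRCm39 with pipseeker, removed ambient RNA with CellBender, imported the counts into Monocle3 and filtered the nuclei. Their limits were more than 500 transcripts, fewer than 10000, and a mitochondrial share below 20%, which all 7357 Cre- and 6766 Tet tcKO nuclei in the files met. The deposited matrices hold UMI counts. The deposited cell tables give the authors' mitochondrial percent, a size factor, which is a ratio of each nucleus's total to a constant and was not used, and the cluster and cell type names used here. In the deposited gene table, the authors' mean signal per genotype was not used, and gene names were taken from it. Of its value columns, 0 were left unassigned.

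Members and gene lists were chosen with earlier results of these data known. UMIs were summed over nuclei of a population and library and expressed per 1000000. Ratios have exact conditional 95% intervals, levels exact Poisson intervals and shares Clopper-Pearson intervals, all for counting error only. For a ratio against 0 UMIs the floor of 3 counts stood in for the 0, and no ratio was formed where both counts were 3 or fewer. There was no test, since clusters were built from these counts and each genotype has 1 library. The study's model over single nuclei was not repeated because it treats nuclei as replicates.

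Named genes were the 15 highest and 15 lowest over the other Tet tcKO RGCs, at 100 CPM or more and in 10% or more of the nuclei on the higher side, and the 10 highest and 10 lowest between genotypes, at 100 CPM or more and with 30 or more UMIs, each ranked by the interval bound nearest 0. The 10 leading genes over nuclei outside the RGC class, the 3 given markers and list members were named too. For gene length, genes at 50 CPM or more were used, and lengths came from GENCODE on GRCm39 for 31681 of 32227 genes (98.3%). No source used here states how doublets were treated, and a score from simulated doublets (50 neighbours, 30 components), leaving out the top 10%, was used only as an alternative. The 2 libraries shared 1 barcode, outside cluster 31. Scripts were tested on simulated data. Python 3.11.15, numpy 2.4.6, scipy 1.17.1, pandas 2.3.3 and scikit-learn 1.9.0 were used. Some list members are not reported here. The depth range of 1000 to under 2500 UMIs, and leaving out 1 nucleus for Trhde over cluster 2 and for Numbl at that depth, were chosen after seeing the data.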

Additional observations from a re-analysis of the deposited data

Results flagged for a closer look

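For 3 of the genes named between genotypes, cluster 31 stood on one side of cluster 2 in the Cre- library and on the other side in the Tet tcKO library. Gabrb2 had a log2 ratio of cluster 31 over cluster 2 of 1.04 (0.20 to 1.82) in Cre- nuclei, whereas Tet tcKO nuclei gave -0.73 (-1.34 to -0.15). Map2k4 stood at 1.20 (0.26 to 2.07) in Cre- nuclei, and its Tet tcKO value was -1.32 (-2.00 to -0.70). Cacna1d ran the other way, with -0.78 (-1.40 to -0.22) in Cre- nuclei, while the Tet tcKO ratio was 0.29 (0.08 to 0.50). The difference between the libraries was not tested, each value comes from 1 library, and the genes were named for their ratio between genotypes. Over 3564 genes with 30 or more UMIs in both libraries, 9 had counting intervals on opposite sides of 0. The others, seen only after their values were known, were Chrm3, Cyrib, Cpne8, Lrrc4c, Adgrl2 and Reln, with Reln, a secreted glycoprotein of neuronal positioning, at 0.66 in Cre- and -0.31 in Tet tcKO.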

How the results depend on the processing

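Of 534 values recomputed under an alternative, 463 stayed within their interval or within 1.5 times the count, 64 moved further and 7 turned sign although their interval had excluded 0. These 7 did so when each gene was counted once per nucleus, over the other Tet tcKO RGCs: Il1rapl2 became 0.065, Pcdh9 0.68, Macrod2 0.44, Opcml 0.13, Kcnh7 0.24, Kirrel3 0.19 and Rbpms 0.55. Thy1, whose interval held 0, went to -0.04 there. Between genotypes Slc17a6 went to 0.14 with nuclei weighted equally, and Rbpms and the RGC marker median to 0.008 at 1000 to under 2500 UMIs. Under the once-per-nucleus count 244 genes were 2-fold higher and 728 lower, and long genes differed from short ones by -0.15. It caps a gene at 1 per nucleus, so an abundant gene counts for less in the deeper nuclei of the other clusters. The length difference was -0.57 with each nucleus weighted equally and -0.40 at 1000 to under 2500 UMIs, and the RGC marker median was -0.065 without the highest doublet scores. With genes at 1 CPM or more 616 were lower. At 50 CPM or more, 102 were higher and 47 lower over the other RGCs, and 490 higher and 354 lower between genotypes. Without thinning, Rbpms was in 80.6% of Tet tcKO and 72.4% of Cre- members. Median-of-ratios scaling shifted ratios by 0.03 and -0.06. No paired analysis was possible because each genotype has 1 library, and no replicate could be left out. The depth of the 58 Cre- nuclei limits every value between genotypes.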
